A study of Mus musculus with 18 samples.

Results

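The Notch pathway genes described here are 34 named members of the 50686 genes in the count tables: 4 receptors, 5 ligands, 3 Fringe sugar transferases, 2 shedding proteases, 4 subunits of the gamma-secretase, 4 proteins of the nuclear complex, 5 target genes and 7 modulators. They are listed by name, with no threshold on a measured value, and were drawn up with earlier results of these libraries known. Each symbol was matched to 1 gene identifier. RNA was sequenced from E0771, a mouse mammary tumor line used as a model of triple-negative breast cancer. All cells carried a luciferase gene driven by the CMV promoter and, from a retrovirus with an mCherry marker on which cells were sorted, 1 hairpin. The hairpin was a non-targeting one against Renilla luciferase in control (cntrl) cells and targeted Cdk8 at separate sites in shCdk8-1 and shCdk8-2 cells. Cells of each line received DMSO or 1 µM Senexin B (SnxB) for 48 h. SnxB is an inhibitor of the kinases CDK8 and CDK19. Every one of the 6 groups had 3 libraries. Each hairpin is represented by 1 line. The labels do not say that the 3 libraries of a group came from separate cultures, so that p-values measure only the spread between these libraries.

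Notch receptors are membrane proteins that are activated by ligands of the Jagged and Delta families on a neighboring cell. Binding exposes the receptor to an ADAM protease and then to the gamma-secretase, which releases the intracellular domain. In the nucleus this domain joins the DNA-binding protein RBPJ and a Mastermind-like coactivator and turns on genes such as those of the Hes and Hey families. CDK8 with cyclin C is known to phosphorylate the intracellular domain, after which the ubiquitin ligase subunit FBXW7 marks it for degradation. The question put to these libraries was which parts of this pathway differed when Cdk8 was knocked down and which when its kinase activity was inhibited.

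The libraries held 16452260 to 22664693 counts (median 19029320), and 3 counts in a library are 0.131 to 0.185 CPM (counts scaled by TMM to a common library size). Cdk8 itself was at 54.8 to 58.6 CPM in the cntrl libraries in DMSO, at 18.7 to 23.4 CPM in shCdk8-1 and at 38.5 to 39.2 CPM in shCdk8-2, so that the groups did not overlap. The mesenchymal markers summed to 4547 to 4687 CPM in cntrl cells in DMSO, nearly all of it Vim, while the mesenchymal gene Fn1 and the epithelial keratin genes Krt5 and Krt14 were at 0 counts in those libraries. Of the 6 epithelial markers, which together reached at most 0.392 CPM there, Krt8 was at a mean of 0.0549 CPM in cntrl, 7.51 CPM in shCdk8-1 and 13.04 CPM in shCdk8-2 cells. Cdh1 and Epcam stayed below 1 CPM in these 3 groups, and Krt18, Krt5 and Krt14 at 0 or 1 count per library. Triple-negative tumors lack the receptors for estrogen (Esr1) and progesterone (Pgr), and their copy number and expression of Erbb2 (HER2) are normal. Pgr had 0 counts in cntrl cells in DMSO, whereas Esr1 was at 21.5 to 24.1 CPM. Erbb2 was at 54.3 to 56.5 CPM there. In shCdk8-1 and shCdk8-2 cells Esr1 was at a mean of 1.25 and 0.951 CPM and Erbb2 at 49.6 and 47.3 CPM. The part of these marker levels in the results below was not tested. The 4 leukocyte markers together reached at most 0.601 CPM in any library.

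In cntrl cells in DMSO the pathway was carried by a few genes in each role, as levels per length show (RPKM, the CPM per kilobase of exon). Among receptors Notch2 was at 18.2 ± 0.31 RPKM (SD, n = 3), Notch1 at 10.5 ± 0.42 and Notch4 at 1.48 ± 0.10, and Notch3 had 0, 0 and 1 counts. Among ligands Jag1 was at 5.17 ± 0.077 RPKM (SD, n = 3) and Dll1 at 3.51 ± 0.31, with Jag2, Dll3 and Dll4 below 0.2 RPKM. The protease gene Adam10, with 59.3 ± 2.8 RPKM, was the member with the highest level, followed by the gamma-secretase subunit gene Ncstn with 35.6 ± 1.4. Of the target genes Hes1 was at 8.06 ± 0.36 RPKM and Nrarp at 5.55 ± 0.31, while Hey1 and Hey2 had 0 counts in all 18 libraries and Heyl at most 1. A count of 0 in a library allows a level of up to that of 3 counts.

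**Figure D1:**
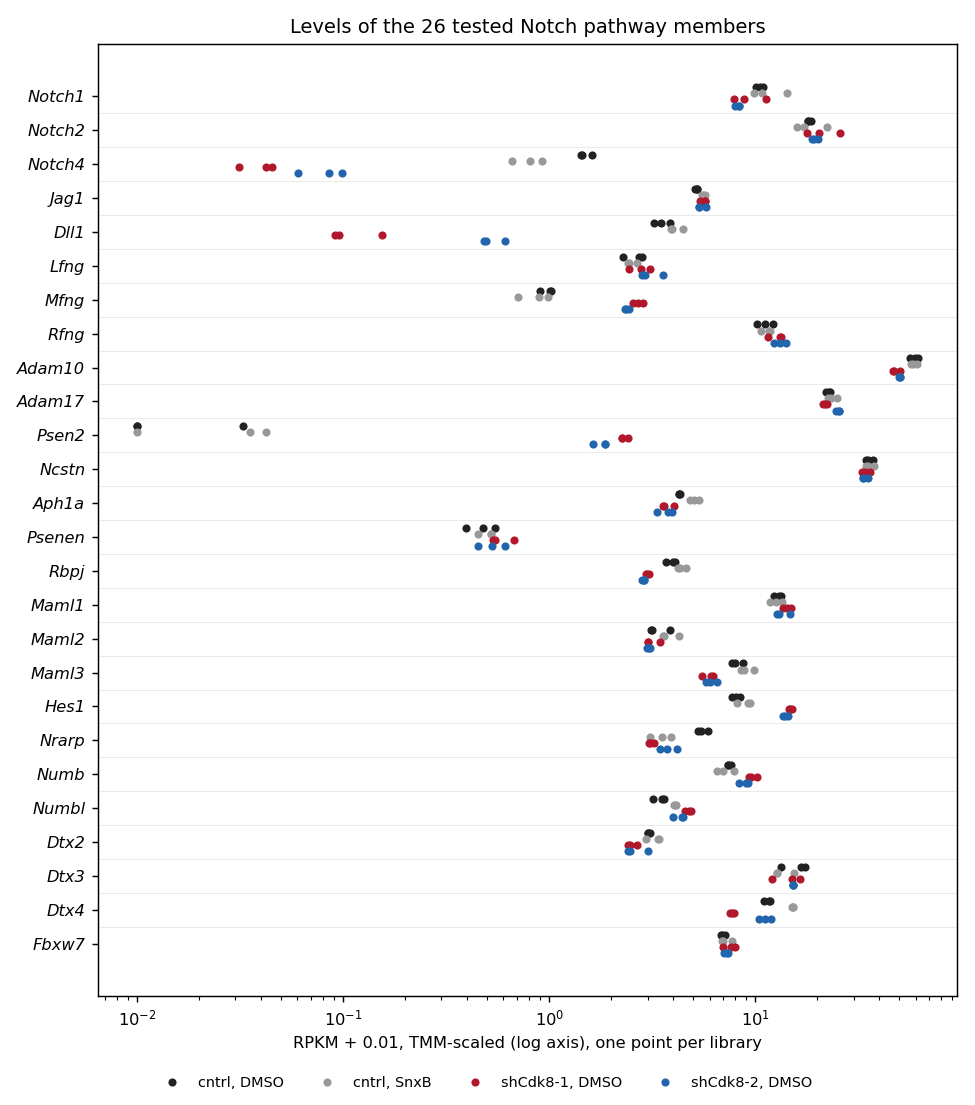
Levels of the 26 tested members in 4 groups, as RPKM plus 0.01 on a log axis, with 1 point per library (3 per group). Most members lie within a narrow band in all 4 groups, whereas the shCdk8 libraries stand far to the left for Notch4 and Dll1 and far to the right for Psen2.

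Of the 34 members, 26 had counts high enough to be tested. Notch3, Jag2, Dll3, Dll4, Hey1, Hey2, Heyl and Dtx1 were removed by the filter on low counts. In shCdk8-1 against cntrl cells in DMSO, 16 of the 26 tested members were called by edgeR's quasi-likelihood test at an adjusted p under 0.05, 7 higher and 9 lower. Of all 12590 genes tested 60.6% passed, 30.0% higher and 30.6% lower. With shCdk8-2 it was again 16 members, 7 higher and 9 lower, and of all genes 58.2% passed, 28.7% higher and 29.5% lower. These shares of 61.5% were close to the background, and the log2 fold changes, without their sign, had a median of 0.29 over the members and 0.26 over all genes with shCdk8-1, and 0.24 for both with shCdk8-2. When a fold change above 2 was also asked for, 4 members passed with shCdk8-1 (12.3% of all genes) and 4 with shCdk8-2 (10.8%). With each line these were Notch4 and Dll1, which fell, and Psen2 and Mfng, which rose. The shRNA comparisons share the cntrl libraries.

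**Figure D2:**
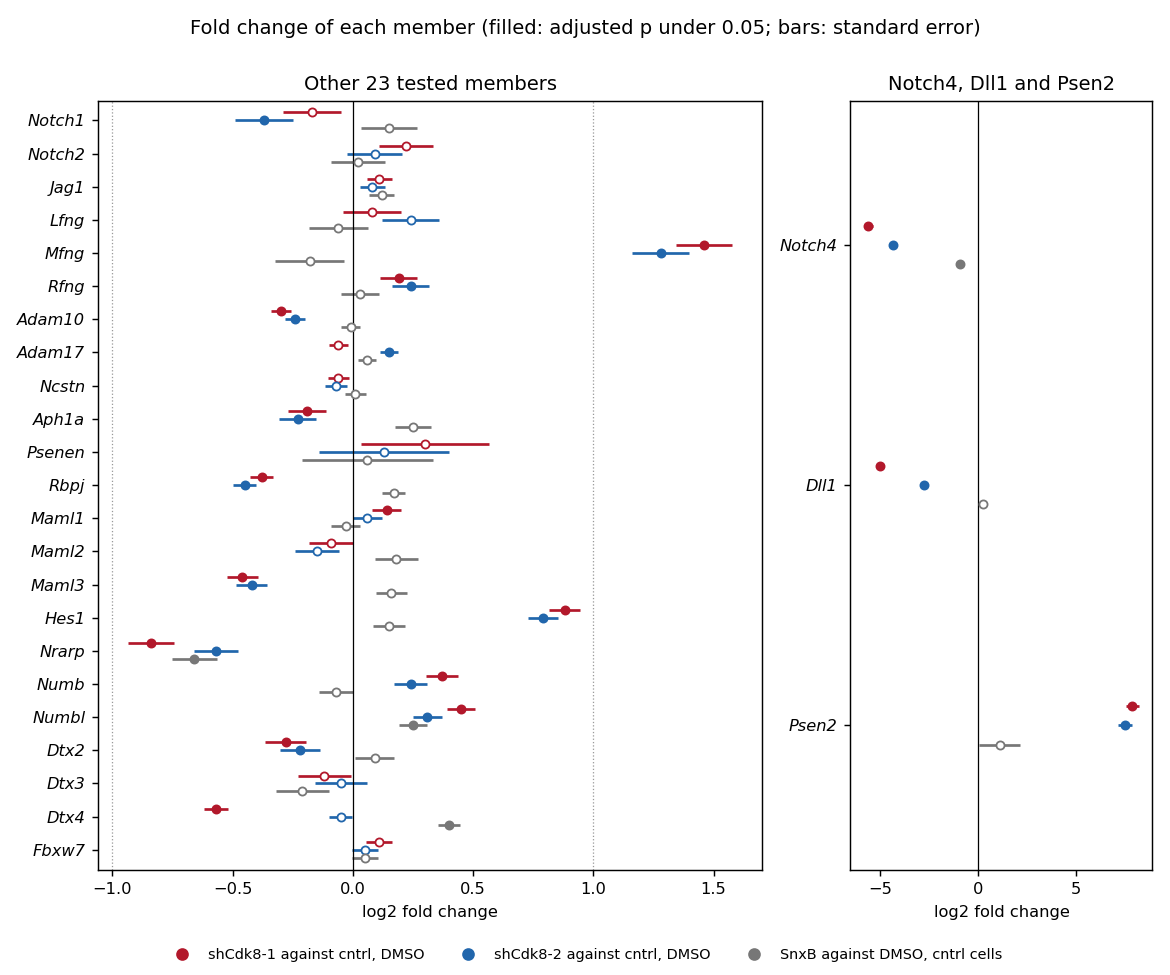
Log2 fold change of each tested member with its standard error in 3 comparisons, filled where the adjusted p was under 0.05. Besides Notch4, Dll1 and Psen2, in the panel with the wider axis, only Mfng lies beyond the dotted lines of a 2-fold change, in both shRNA comparisons.

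The receptor gene Notch4 (ENSMUSG00000015468.14, GRCm38 chr17:34564268-34588503, plus strand), best known from endothelial cells and from mouse mammary tumors with a viral insertion in it, fell the most of the receptors. It was at 11.4, 12.9 and 11.5 CPM in cntrl cells in DMSO, at 0.282, 0.171 and 0.258 CPM in shCdk8-1 cells and at 0.609, 0.408 and 0.712 CPM in shCdk8-2 cells. All 6 shCdk8 libraries lay below all cntrl libraries, with 3 to 14 counts each against 185 to 238. On the log2 scale the fold change, here and below with its standard error (SE), was -5.60 ± 0.22 with shCdk8-1 (adjusted p = 2.64e-12) and -4.37 ± 0.18 with shCdk8-2 (adjusted p = 9.15e-12). Over the 3 libraries of each group this was a 49.7-fold lower level with shCdk8-1, with a 95% counting interval of 29.4 to 91.3. In bulk RNA, fewer cells with the transcript and less transcript per cell cannot be told apart.

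The genes beside Notch4 did not move as far. Of the 3 tested genes on each side, chosen after the values of Notch4 were seen, Gpsm3 had the largest changes with -0.91 and -0.69 on the log2 scale, and Pbx2, the next but one, had -0.07 and 0.07. Notch4 is also expressed by endothelial cells, and their markers did not move as 1 group. Cdh5, which encodes the junction protein VE-cadherin, was at a mean of 4.34 CPM in cntrl cells, 0.206 in shCdk8-1 and 0.595 in shCdk8-2 cells. Pecam1 went the other way, from 0.286 to 14.3 and 5.85 CPM. Kdr had 11, 12 and 10 counts in cntrl cells, 0, 1 and 2 in shCdk8-1 and 4, 1 and 2 in shCdk8-2 cells, and Tie1 had 3 to 5 counts in cntrl libraries and 0 or 1 in the shCdk8 libraries. Tek had 4, 4 and 5 counts in shCdk8-1 and 2, 0 and 1 in shCdk8-2 cells, against 0 in cntrl libraries. Thus Cdh5, Kdr and Tie1 were at a lower mean in both shCdk8 lines, as Notch4 was, and Pecam1 and Tek at a higher mean. The summed level below was mostly Cdh5 in cntrl and mostly Pecam1 in shCdk8 cells. Summed, the 5 endothelial markers were at 5.1 to 5.79 CPM in cntrl cells in DMSO, 13.8 to 15.4 in shCdk8-1 cells and 6.43 to 6.96 in shCdk8-2 cells, and their part in the change of Notch4 was not tested. In cntrl cells in DMSO 2 of the 5 markers had more than 3 counts in every library, and Tek had 0.

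The window around the start of Notch4 that RefSeq gives for GRCm38.p6 (250 bases before and 50 after the start, chr17:34564045-34564344, 5′ to 3′ on the plus strand) is shown because this gene had the largest log2 fold change of the receptors and ligands with each hairpin in DMSO. It was searched on both strands for GTGGGAA and GTGAGAA, forms of the RBPJ site, which 10.6% of all 32851 such promoter windows hold. It holds neither, and is therefore in lower case throughout.
Notch4 promoter: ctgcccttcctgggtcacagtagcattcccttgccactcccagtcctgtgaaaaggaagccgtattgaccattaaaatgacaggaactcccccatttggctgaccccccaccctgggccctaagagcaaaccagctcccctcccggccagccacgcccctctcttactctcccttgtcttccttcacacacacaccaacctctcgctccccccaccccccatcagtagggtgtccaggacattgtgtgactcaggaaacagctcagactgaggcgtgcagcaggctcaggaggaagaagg

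Of the other receptor genes, Notch1 was lower with shCdk8-2 (log2 fold change -0.37, ± 0.12 SE, adjusted p = 0.0158), and its -0.17 with shCdk8-1 did not pass (adjusted p = 0.234). Notch2, the most abundant receptor gene, was at 200, 194 and 194 CPM in cntrl cells, at 192, 277 and 220 CPM in shCdk8-1 cells and at 204, 207 and 216 CPM in shCdk8-2 cells. The shCdk8-1 libraries spread around the cntrl range and the shCdk8-2 libraries lay just above it, and the changes of 0.22 (adjusted p = 0.097) and 0.09 (adjusted p = 0.532) did not pass. Of the summed RPKM of the 4 receptor genes, Notch4 made up 4.92% ± 0.37 (SD, n = 3) in cntrl cells, 0.101% ± 0.040 in shCdk8-1 and 0.259% ± 0.066 in shCdk8-2 cells. The sum itself was 30.1 ± 0.69, 30.7 ± 5.7 and 27.6 ± 0.76 RPKM. Notch2 has 5.02% of its exon bases in common with another gene on the same strand, and reads on these bases were not counted.

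Among the ligands, Dll1 fell while Jag1 was near its level in cntrl cells. Dll1 (ENSMUSG00000014773.13, GRCm38 chr17:15367354-15376872, minus strand) encodes a Delta ligand that activates receptors on the next cell. Its level was 16.1, 14.7 and 13.6 CPM in cntrl cells in DMSO, 0.611, 0.342 and 0.361 CPM in shCdk8-1 cells and 2.00, 2.04 and 2.52 CPM in shCdk8-2 cells. The 3 groups did not overlap, with shCdk8-1 lowest. The log2 fold changes against cntrl were -5.03 (± 0.17 SE, adjusted p = 5.33e-13) and -2.77 (± 0.12 SE, adjusted p = 2.26e-11). Set directly against each other, shCdk8-2 cells held more Dll1 than shCdk8-1 cells, by 2.26 on the log2 scale (± 0.25 SE, adjusted p = 1.09e-05).

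Dll1 and Notch4 both lie on chromosome 17 and the nearest tested genes on both sides of Dll1 had log2 fold changes between -0.50 (Fam120b) and -0.02 (Tbp) with shCdk8-1. RefSeq gives 2 windows for Dll1, and one of them (chr17:15375774-15376073, GRCm38.p6, minus strand) is shown for the ligand that fell. It lies inside the gene as counted (chr17:15367354-15376872). The other (chr17:15376883-15377182) lies just beyond the 5′ end of that span and is not shown. Neither window holds a form of the RBPJ site.
Dll1 promoter: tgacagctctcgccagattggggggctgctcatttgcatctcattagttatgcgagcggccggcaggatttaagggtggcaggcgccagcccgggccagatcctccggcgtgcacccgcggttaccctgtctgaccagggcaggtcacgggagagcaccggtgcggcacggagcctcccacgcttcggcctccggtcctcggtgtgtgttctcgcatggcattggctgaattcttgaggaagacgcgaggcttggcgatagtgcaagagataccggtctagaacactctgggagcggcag

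Jag1, the ligand gene with the highest level, was at 30.4, 30.4 and 29.6 CPM in cntrl cells, at 33.1, 33.3 and 31.5 CPM in shCdk8-1 cells and at 33.6, 30.9 and 30.9 CPM in shCdk8-2 cells. These libraries lay slightly above the cntrl range, but the changes of 0.11 (± 0.052 SE, adjusted p = 0.0674) and 0.08 (adjusted p = 0.226) did not pass the test. Dll1 made up 39.4% ± 1.8 (SD, n = 3) of the summed RPKM of the 5 ligand genes in cntrl cells, 1.80% ± 0.59 in shCdk8-1 cells and 8.53% ± 1.2 in shCdk8-2 cells. Jag1 made up 58.2% ± 1.7, 97.1% ± 0.62 and 89.6% ± 1.8. The summed ligand level was 8.88 ± 0.38 RPKM in cntrl, 5.77 ± 0.15 in shCdk8-1 and 6.09 ± 0.21 in shCdk8-2 cells.

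Dll4, a Delta ligand best known from sprouting vessels, was at the limit of detection. It had 7, 7 and 10 counts in cntrl cells in DMSO, 1, 0 and 0 in shCdk8-1 cells and 1, 1 and 4 in shCdk8-2 cells, so that neither shCdk8 group overlapped the cntrl libraries. It did not pass the filter on low counts. Without the filter its log2 fold change was -4.23 with shCdk8-1 (adjusted p = 1.89e-05) and -2.07 with shCdk8-2 (adjusted p = 0.00611). As a ratio of summed counts, cntrl cells held 4.42 times the level of shCdk8-2 cells, with a 95% counting interval of 1.76 to 13.2. Jag2 had 2 to 8 counts and Dll3 0 to 3 counts per library in these 3 groups.

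**Figure D3:**
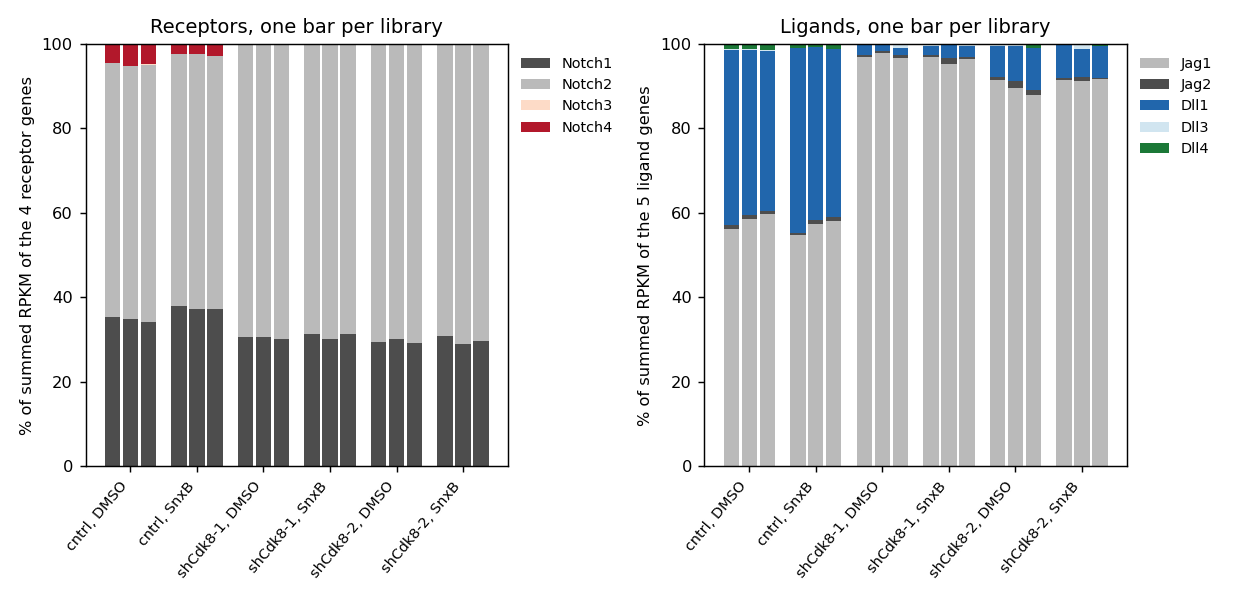
Share of each receptor gene and each ligand gene in the summed RPKM of its role, with 1 bar per library and 3 bars per group. The Notch4 share is visible in the 6 cntrl libraries alone, and Dll1 holds 37.8 to 43.8% of the ligand sum in cntrl libraries against at most 9.89% in the 12 shCdk8 libraries.

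The Fringe enzymes add sugars to the receptors and thereby change which ligand they respond to. Mfng (Manic fringe, ENSMUSG00000018169.12, GRCm38 chr15:78755882-78773475, minus strand) was at 2.53, 2.87 and 2.84 CPM in cntrl cells, at 7.61, 8.04 and 7.18 CPM in shCdk8-1 cells and at 6.66, 6.89 and 6.58 CPM in shCdk8-2 cells. All shCdk8 libraries lay above all cntrl libraries. Its log2 fold changes were 1.46 (± 0.12 SE, adjusted p = 2.05e-08) and 1.28 (± 0.12 SE, adjusted p = 1.53e-07). Rfng, the Fringe gene with the highest level, rose by 0.19 (adjusted p = 0.0494) and 0.24 (adjusted p = 0.0157), whereas Lfng had changes of 0.08 and 0.24 that did not pass. The Mfng share of the summed RPKM of the 3 Fringe genes was 6.59% ± 0.70 (SD, n = 3) in cntrl, 14.9% ± 1.8 in shCdk8-1 and 12.7% ± 0.57 in shCdk8-2 cells. The tested genes directly beside Mfng were Elfn2, which rose by 3.63 and 3.07 on the log2 scale, and Card10, which rose by 0.14 and 0.28. Cyth4, beyond Elfn2, had changes of -3.83 and -2.19.

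The proteases that shed the receptors after ligand binding changed little. Adam10 fell by 0.30 on the log2 scale with shCdk8-1 (± 0.041 SE, adjusted p = 8.09e-06) and fell by 0.24 with shCdk8-2 (adjusted p = 9.19e-05). Adam17 rose with shCdk8-2 (0.15, adjusted p = 0.00253), and its -0.06 with shCdk8-1 did not pass (adjusted p = 0.217). The lines differed in Adam17 by 0.21 (± 0.037 SE, adjusted p = 9.09e-04).

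In the gamma-secretase, which makes the cut that frees the intracellular domain, Psen2 differed most between the lines. Psen2 (ENSMUSG00000010609.15, GRCm38 chr1:180227004-180263438, minus strand) encodes one of the catalytic presenilin subunits. It had 0, 0 and 2 counts in the cntrl libraries in DMSO and 2, 3 and 0 in cntrl cells in SnxB. In shCdk8-1 cells it had 207, 170 and 201 counts in DMSO and 168, 164 and 178 in SnxB, and in shCdk8-2 cells 185, 138 and 146 in DMSO and 170, 138 and 132 in SnxB. The gene was thus near or at 0 in all 6 cntrl libraries and at 7.05 to 10.4 CPM in all 12 shCdk8 libraries.

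The ratio of the summed counts of Psen2 in DMSO, scaled to library size, was 274 for shCdk8-1 against cntrl (95% counting interval 75.4 to 2265) and 212 for shCdk8-2 (58.5 to 1759). These ratios rest on 2 counts in the cntrl group. The adjusted p was 6.62e-12 and 3.8e-11. The 2 lines differed by -0.37 (shCdk8-2 against shCdk8-1, ± 0.12 SE, adjusted p = 0.0352). None of its nearest tested neighbors Cdc42bpa, Coq8a and Gm5069 passed the test in either comparison. Farther out, Parp1 rose by 0.34 and 0.28, and Ahctf1 by the same amounts.

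RefSeq gives 2 windows for Psen2 on the minus strand of GRCm38.p6, chr1:180256251-180256550 and chr1:180245901-180246200. Both windows lie inside the gene as counted (chr1:180227004-180263438), so that neither covers its 5′ end. They are shown because the gene went from near 0 to a measurable level. The second holds GTGGGAA on the opposite strand, 89 bases before the start, and the capitals mark its complement as read on the strand of the gene. The first holds no match.
Psen2 promoter, first start: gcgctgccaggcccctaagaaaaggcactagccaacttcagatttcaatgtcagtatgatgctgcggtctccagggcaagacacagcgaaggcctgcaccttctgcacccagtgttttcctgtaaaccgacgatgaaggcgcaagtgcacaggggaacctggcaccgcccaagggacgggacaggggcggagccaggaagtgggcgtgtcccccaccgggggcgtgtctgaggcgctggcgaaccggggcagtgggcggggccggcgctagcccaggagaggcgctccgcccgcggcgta
Psen2 promoter, second start: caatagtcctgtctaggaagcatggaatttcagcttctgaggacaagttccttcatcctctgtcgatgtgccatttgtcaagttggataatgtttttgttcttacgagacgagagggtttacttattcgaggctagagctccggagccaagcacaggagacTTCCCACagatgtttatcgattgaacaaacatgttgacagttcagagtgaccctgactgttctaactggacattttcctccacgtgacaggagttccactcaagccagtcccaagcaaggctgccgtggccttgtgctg

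Of the other subunits, Ncstn, Aph1a and Psenen had changes of at most 0.30 in size, and Aph1b, listed among further genes of the pathway, rose. Ncstn, which encodes the large substrate-binding subunit nicastrin, had changes of -0.06 and -0.07 that did not pass the test. Aph1a, a scaffold subunit, fell by 0.19 with shCdk8-1 (adjusted p = 0.0427) and fell by 0.23 with shCdk8-2 (adjusted p = 0.0218). Aph1b, an alternative scaffold subunit, went from 4.37, 4.93 and 5.09 CPM in cntrl cells to 8.08, 8.49 and 8.78 CPM in shCdk8-1 and 6.53, 7.46 and 8.11 CPM in shCdk8-2 cells, without overlap (0.81, ± 0.12 SE, adjusted p = 3.49e-05, and 0.60, ± 0.13 SE, adjusted p = 7.48e-04). Psenen, which encodes the small subunit PEN-2, had 8 to 18 counts per library in these groups and changes of 0.30 and 0.13 with SEs of 0.26 and 0.27, too wide to show a change of that size. Of the 50-base windows of the Aph1a transcripts 28.2% also occur in other genes, and 18.4% of those of Psenen, which makes their counts uncertain. Psen2 made up 0.018% of the summed RPKM of these 4 genes in cntrl cells, 5.61% ± 0.42 (SD, n = 3) in shCdk8-1 cells and 4.45% ± 0.45 in shCdk8-2 cells, and the sum was 40.4 ± 1.5, 40.9 ± 1.4 and 40.0 ± 1.2 RPKM.

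**Figure D4:**
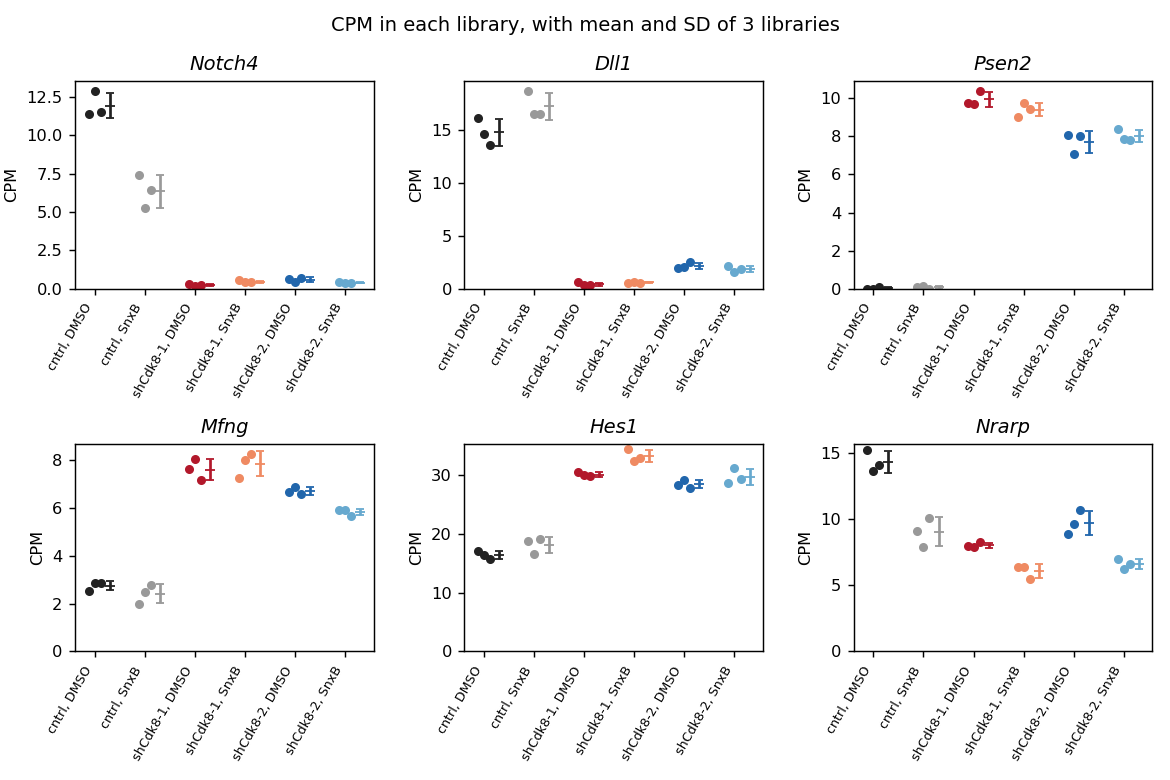
CPM of 6 members in each of the 18 libraries, with the mean and SD of the 3 libraries of a group drawn beside the points and each axis starting at 0. The 12 shCdk8 libraries lie below the 6 cntrl libraries for Notch4 and Dll1 and above them for Psen2, Mfng and Hes1, while for Nrarp the cntrl libraries in DMSO stand above all others.

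In the nuclear complex, Rbpj and Maml3 were lower in both lines. Rbpj, which encodes the DNA-binding protein of the pathway, was at 51.7, 46.7 and 50.5 CPM in cntrl cells, at 37.7, 38.7 and 38.0 CPM in shCdk8-1 cells and at 36.5, 36.8 and 35.7 CPM in shCdk8-2 cells. All shCdk8 libraries were below the cntrl range, with log2 fold changes of -0.38 (± 0.049 SE, adjusted p = 4.73e-06) and -0.45 (± 0.049 SE, adjusted p = 8.26e-07). Of the 50-base windows of Rbpj 10.6% also occur in other genes, among them the pseudogene Rbpj-ps3. The coactivator gene Maml3 fell by 0.46 (adjusted p = 1.4e-05) and fell by 0.42 (adjusted p = 3.42e-05). Maml1 rose by 0.14 with shCdk8-1 (adjusted p = 0.0478) and had 0.06 with shCdk8-2 (adjusted p = 0.387), and Maml2 did not pass with either hairpin (-0.09 and -0.15).

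The tested target genes moved apart. Hes1 (ENSMUSG00000022528.7, GRCm38 chr16:30064384-30067796, plus strand), a repressor of transcription, was at 17.1, 16.5 and 15.7 CPM in cntrl cells, at 30.6, 30.1 and 29.9 CPM in shCdk8-1 cells and at 28.3, 29.2 and 27.9 CPM in shCdk8-2 cells. The groups did not overlap, and Hes1 rose by 0.88 (± 0.063 SE, adjusted p = 5.4e-09) and by 0.79 (± 0.063 SE, adjusted p = 2.6e-08), both short of a 2-fold change. Nrarp (ENSMUSG00000078202.3, GRCm38 chr2:25180758-25183339, plus strand), a target whose product limits the pathway by binding the nuclear complex, went the other way. It was at 15.2, 13.7 and 14.1 CPM in cntrl cells, at 7.94, 7.86 and 8.26 CPM in shCdk8-1 cells and at 8.88, 9.60 and 10.7 CPM in shCdk8-2 cells. All shCdk8 libraries lay below the cntrl range, with log2 fold changes of -0.84 (± 0.095 SE, adjusted p = 1.24e-06) and -0.57 (± 0.091 SE, adjusted p = 5.91e-05).

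The RefSeq window at the start of Nrarp (chr2:25180508-25180807, GRCm38.p6, plus strand) is shown as that of the target gene that fell in all comparisons with cntrl cells in DMSO, and it holds neither form of the RBPJ site. Among the members 28 had a window, 37 windows in all, and 6 of these (16.2%) held a site, against 10.6% of all promoter windows. Besides Psen2 these belonged to Aph1a, Lfng, Psenen, Hey2 and Numb. That a window lacks these letters says nothing about sites elsewhere.
Nrarp promoter: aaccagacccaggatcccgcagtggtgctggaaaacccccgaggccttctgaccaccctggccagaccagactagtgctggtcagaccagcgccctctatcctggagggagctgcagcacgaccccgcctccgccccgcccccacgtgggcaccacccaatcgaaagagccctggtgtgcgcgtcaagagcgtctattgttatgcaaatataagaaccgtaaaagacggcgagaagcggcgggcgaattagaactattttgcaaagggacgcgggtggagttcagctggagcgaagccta

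Among the modulators, Numb and its relative Numbl, which encode adaptors that hold the pathway back, both rose. Numb rose by 0.37 with shCdk8-1 (± 0.067 SE, adjusted p = 1.72e-04) and by 0.24 with shCdk8-2 (adjusted p = 0.00639), and Numbl by 0.45 (± 0.058 SE, adjusted p = 5.32e-06) and 0.31 (adjusted p = 2.39e-04). Of the Deltex genes, which encode ubiquitin ligases that act on the receptors, Dtx2 fell by 0.28 (adjusted p = 0.0103) and fell by 0.22 (adjusted p = 0.0359), while Dtx3 did not pass (-0.12 and -0.05). Dtx1 had at most 2 counts in any library. Dtx4 was at 63.4, 67.1 and 67.9 CPM in cntrl cells, at 45.5, 43.5 and 44.4 CPM in shCdk8-1 cells and at 63.9, 68.7 and 59.8 CPM in shCdk8-2 cells. It was thus low in shCdk8-1 cells (log2 fold change -0.57, ± 0.049 SE, adjusted p = 4.77e-08), and shCdk8-2 cells spread around the cntrl range (-0.05, ± 0.048 SE, adjusted p = 0.385). Fbxw7, whose product marks the phosphorylated intracellular domain for degradation, had changes of 0.11 (adjusted p = 0.106) and 0.05 (adjusted p = 0.433) that did not pass.

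Between the knockdown lines in DMSO, 5 of the 26 members differed at the adjusted p, where 22.0% of all genes did. In shCdk8-2 cells Notch4 (log2 fold change 1.23, ± 0.42 SE, adjusted p = 0.0458), Dll1 (2.26), Adam17 (0.21) and Dtx4 (0.52, adjusted p = 1.9e-06) were higher and Psen2 was lower than in shCdk8-1 cells. The remaining levels of Notch4 rest on 14 counts in shCdk8-1 and 35 in shCdk8-2 cells over 3 libraries. Blocking on the replicate number gave an adjusted p of 0.0634 for Notch4 and 0.0631 for Psen2, and 3 members passed. Both calls were lost as well when 1 library was left out, for Notch4 without any of 5 of the 6 (adjusted p up to 0.145, all but shCdk8-2 replicate 2) and for Psen2 without any of the 6 (up to 0.129).

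In cntrl cells, SnxB changed 4 of the 26 tested members at the adjusted p (15.4%), where 5.53% of all genes tested passed, 3.42% higher and 2.10% lower. Without adjustment 10 members had a p under 0.05, against 18.5% of all genes. With a fold change above 2 as well, 0 members passed (0.318% of all genes). Without their sign, the log2 fold changes had a median of 0.15 over the members and 0.08 over all genes. Of the 4 members, Notch4 and Nrarp fell and Dtx4 and Numbl rose.

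Notch4 was at 7.38, 5.24 and 6.41 CPM in cntrl cells with SnxB, all below the 11.4 to 12.9 CPM in DMSO and all above the shCdk8 libraries. Its log2 fold change was -0.92 (± 0.11 SE, adjusted p = 1.5e-04). The summed endothelial markers were at 2.92 to 3.34 CPM in SnxB against 5.1 to 5.79 CPM in DMSO, with Cdh5 at a mean of 2.32 against 4.34 CPM, and their part was not tested. Nrarp was at 9.13, 7.93 and 10.1 CPM with SnxB, below each DMSO library and within the range of the shCdk8 lines in DMSO (-0.66, ± 0.093 SE, adjusted p = 4.07e-04).

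Dtx4 was at 87.8, 86.5 and 87.6 CPM with SnxB, above the DMSO libraries (0.40, ± 0.047 SE, adjusted p = 8.67e-05). Numbl was at 35.7, 34.9 and 35.5 CPM with SnxB against 27.7, 31.3 and 30.4 CPM in DMSO (0.25, ± 0.059 SE, adjusted p = 0.021). Rbpj (0.17, adjusted p = 0.0521) and Aph1a (0.25, adjusted p = 0.0691) were the next nearest to the threshold. The changes of Dll1 (0.23, ± 0.087 SE, adjusted p = 0.165), Mfng (-0.18, ± 0.14 SE, adjusted p = 0.613) and Hes1 (0.15, ± 0.066 SE, adjusted p = 0.245) with SnxB did not pass. For Psen2, with 2 counts in DMSO and 5 in SnxB over the cntrl libraries, a difference could not be measured.

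The knockdown lines in DMSO were next compared with cntrl cells in SnxB, so that knockdown and inhibition are compared without the shared DMSO control. With shCdk8-1, 17 of 26 members differed (60.1% of all genes), and with shCdk8-2, 16 of 26 (57.7% of all genes). The difference of the knockdown cells was -4.68 ± 0.24 and -3.45 ± 0.20 (SE) on the log2 scale for Notch4 and -5.25 and -2.99 for Dll1, each with an adjusted p of at most 5.91e-10. For Dtx4 it was -0.97 and -0.45 and for Rbpj -0.55 and -0.62. Hes1 was higher by 0.73 (adjusted p = 3.85e-08) and 0.64 (adjusted p = 2.23e-07). For Nrarp the difference was -0.17 (± 0.10 SE, adjusted p = 0.152) with shCdk8-1 and 0.09 (± 0.097 SE, adjusted p = 0.432) with shCdk8-2. This does not show that the levels were equal.

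The effect of SnxB was also measured within each knockdown line, in the fit to 18 libraries. In shCdk8-1 cells 0 of 26 members passed the adjusted p, where 1.48% of all genes did. Without adjustment 7 members had a p under 0.05, against 14.5% of all genes. In shCdk8-2 cells 1 member passed, where 2.05% of all genes did. This was Nrarp, which went from 8.88, 9.60 and 10.7 CPM in DMSO to 7, 6.21 and 6.62 CPM in SnxB (-0.55, ± 0.10 SE, adjusted p = 0.00414). In shCdk8-1 cells it went from 7.86 to 8.26 CPM to 5.50 to 6.40 CPM, without overlap, and the change of -0.40 (± 0.11 SE, adjusted p = 0.0636) missed the threshold. The Nrarp levels with both a Cdk8 hairpin and SnxB were the lowest of the 6 groups.

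Whether the SnxB effect differed between lines was tested by the interaction over all 18 libraries. With shCdk8-1, 1 of 26 members passed, where 0.305% of all genes did. It was Dtx4, for which SnxB raised the level by 0.40 in cntrl cells and had a change of 0.05 in shCdk8-1 cells (interaction -0.35, ± 0.064 SE, adjusted p = 0.0188). No member passed without cntrl DMSO replicate 1 or 2, cntrl SnxB replicate 3, shCdk8-1 DMSO replicate 1 or shCdk8-1 SnxB replicate 1 or 3. For Notch4 the interaction was 1.84 (± 0.42 SE, adjusted p = 0.0703), with 3 to 10 counts per shCdk8-1 library. With shCdk8-2, 0 members passed (0.0548% of all genes), and 3 had an unadjusted p under 0.05, against 5.86% of all genes. Dtx4 was at -0.30 there (± 0.062 SE, adjusted p = 0.105). For Nrarp neither interaction passed (0.26, adjusted p = 0.541, and 0.12, adjusted p = 0.989).

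**Figure D5:**
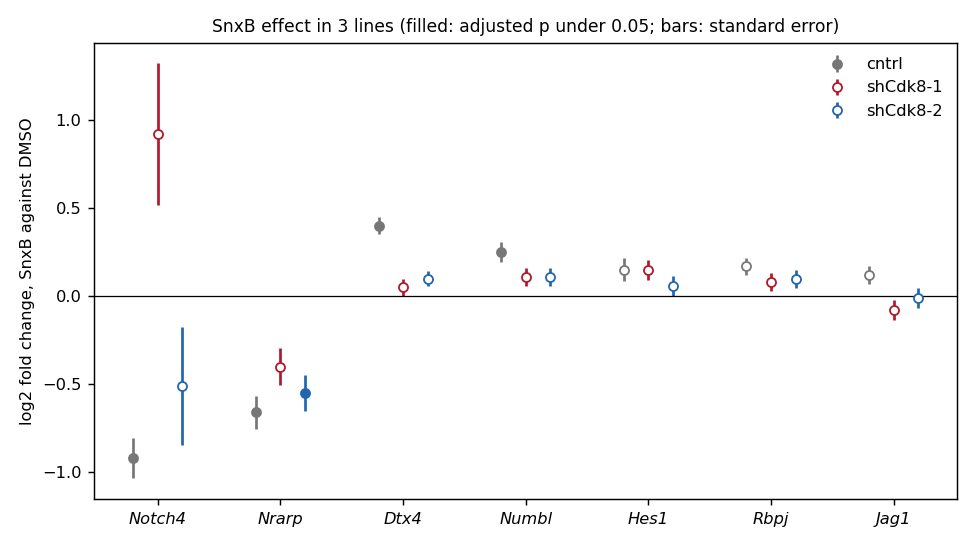
Log2 fold change of SnxB against DMSO in each of the 3 lines for 7 members, with standard errors, filled where the adjusted p was under 0.05. Nrarp lies below 0 in all 3 lines, the Dtx4 and Numbl changes are filled in cntrl cells alone, and the wide bars of Notch4 in the shCdk8 lines go with counts of 3 to 14 per library there.

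The knockdown comparisons were repeated within SnxB, setting against each other 9 libraries that are not compared in DMSO, although the fits share libraries in their estimate of the spread. With shCdk8-1, 19 of 26 members passed (60.6% of all genes), and 15 of the 16 members called in DMSO (all but Maml1) were among them, each in the same direction. They are 93.8% of the members called in DMSO and 78.9% of those called in SnxB, and over all genes the shares were 85.6% and 84.4%. With shCdk8-2, 16 of 26 members passed (56.7% of all genes), and 15 of these were called in DMSO too, again each in the same direction and without Rfng (93.8% of each list, against 86% and 87% over all genes). Notch4 differed by -3.76 (± 0.20 SE) and -3.95 (± 0.20 SE), Dll1 by -4.86 and -3.21, Mfng by 1.69 and 1.27 and Hes1 by 0.88 and 0.71. The Psen2 ratio was 111 (95% counting interval 47.5 to 345) and 95.3 (40.6 to 295). Dtx4, which missed the threshold with shCdk8-2 in DMSO, was lower in SnxB (-0.35, ± 0.044 SE, adjusted p = 1.02e-06).

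A further 51 genes that act on the pathway were listed by role, and 43 of them were tested. With shCdk8-1, 27 passed the adjusted p, 15 higher and 12 lower, which is 62.8% against 60.6% of all genes, and 3 also passed a 2-fold change (6.98% against 12.3%). These were the ligand gene Dner (1.20, ± 0.32 SE, adjusted p = 0.00388), Neurl3, of the Neuralized family of ligases that act on ligands (-1.25, ± 0.41 SE, adjusted p = 0.0158), and Cdk8 itself (-1.39). Dner and Neurl3 rest on few counts. Neurl3 had 11, 7 and 14 counts in cntrl cells in DMSO and 5, 5 and 4 in shCdk8-1 cells. Dner had 7, 12 and 17 against 34, 19 and 35. With shCdk8-2, 22 passed, 12 higher and 10 lower (51.2% against 58.2% of all genes), and 0 of them a 2-fold change (10.8% of all genes). With SnxB in cntrl cells 2 passed (4.65% against 5.53% of all genes), Kat2b (-0.17, adjusted p = 0.0258), which encodes an acetyltransferase that serves as a coactivator, and the target Myc (0.22, adjusted p = 0.00447). Of the 13 tested corepressor genes 5 rose and 2 fell with shCdk8-1, where 30.0% of all genes were higher and 30.6% lower. With shCdk8-2, 3 rose and 1 fell, where 28.7% of all genes were higher and 29.5% lower. Of the kinase module, Cdk19 rose with both hairpins (0.42, adjusted p = 5.8e-08, and 0.12, adjusted p = 0.00989) and Ccnc fell (-0.18, adjusted p = 6.99e-04, and -0.12, adjusted p = 0.0163).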

How the data were processed

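RNA of 18 libraries was sequenced as single-end reads of 50 bases. The authors trimmed reads with Trimmomatic, mapped them with STAR and counted reads on the union of exons with featureCounts 1.5.1 and the GENCODE M13 annotation, by strand per the file headers. The deposited values are raw counts per gene, and 0 columns were left out. The members and gene lists were chosen with earlier results of these data known. Counts were filtered with filterByExpr (minimum count 10, minimum total 15), scaled by TMM and fitted with edgeR 4.0.16 (glmQLFit and glmQLFTest, R 4.3.3) with Benjamini-Hochberg adjustment over all genes tested. Comparisons without shCdk8 cells in SnxB used 12 libraries (12590 genes), and the others all 18 (12772 genes). Genes were called at an adjusted p under 0.05, with a stricter call at a fold above 2. Standard errors were derived from the F statistic. CPM and RPKM are TMM-scaled, and RPKM uses the exon length of each gene in the files. Ratios of counts carry exact 95% intervals that cover counting error only. Values of every library are given for members past both thresholds and for the most abundant receptor, ligand and target. Nrarp, Rbpj, Dtx4 and Numbl were added after their values were seen.

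Symbols come from GENCODE annotation of the same build (GRCm38), promoter windows and their sequences from RefSeq (GRCm38.p6). Hes1, Hey1, Heyl, Mfng, Dtx3 and Dtx4 have no window. Alternatives were DESeq2 1.42.0, scaling by its size factors or by library totals, omitting the filter, more than 1 CPM in at least 3 libraries, an adjusted p under 0.01, other sets of libraries, a replicate block and each library left out. For shCdk8-2 the file headers number the replicates 2, 3 and 3 where the sample labels have 1, 2 and 3. The labels were followed. The deviations of each library from its group mean were correlated over genes between same-numbered libraries. In no comparison did all of these pairs correlate above 0.1. The code was tested on simulated data. Figures were drawn with matplotlib 3.10.9.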

Additional observations from a re-analysis of the deposited data

Results flagged for a closer look

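Dtx4, which encodes a Deltex ubiquitin ligase, responded to SnxB differently in shCdk8-1 and cntrl cells by the test of the difference itself. The interaction was -0.35 on the log2 scale (± 0.064 SE) with an adjusted p of 0.0188 in edgeR's quasi-likelihood test. Each SnxB library of cntrl cells (86.5 to 87.8 CPM) lay above each DMSO library (63.4 to 67.9 CPM), while the shCdk8-1 libraries were at 45.0 to 47.1 CPM in SnxB and 43.5 to 45.5 CPM in DMSO. The call was lost at an adjusted p under 0.01, with library totals in place of TMM, and without any of cntrl DMSO replicate 1 or 2, cntrl SnxB replicate 3, shCdk8-1 DMSO replicate 1 and shCdk8-1 SnxB replicate 1 or 3. With shCdk8-2 the interaction was -0.30 (± 0.062 SE) with an adjusted p of 0.105.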

How the results depend on the processing

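Counts of members called at an adjusted p under 0.05 stayed within 1.5 times in 165 pairs of a comparison and an alternative and moved further in 27. For these counts, here and below, the share of all genes passing at the same setting is not given. They therefore show how far calls depended on the processing, and not whether members differed from other genes. No change of Notch4, Dll1, Mfng or Psen2 that passed the adjusted p in the main fit reversed its direction. Changes of these genes that did not pass there were not followed. Asking for a fold above 2 as well left 4 members in each comparison of an shCdk8 line with cntrl cells, 2 between the shCdk8 lines and 0 for SnxB in cntrl or shCdk8-2 cells and for the interaction with shCdk8-1. That interaction gave 0 members at an adjusted p under 0.01 or with library totals, 4 without a filter and 0 to 1 with a library left out (0 without cntrl DMSO replicate 1 or 2, cntrl SnxB replicate 3, shCdk8-1 DMSO replicate 1 or shCdk8-1 SnxB replicate 1 or 3). Without a filter 3 members passed for SnxB in shCdk8-1 cells and 1 in the interaction with shCdk8-2. Between the shCdk8 lines 3 members passed at an adjusted p under 0.01 and 3 to 4 with a library left out (3 without any 1 shCdk8-1 library or shCdk8-2 replicate 3). The cause of these changes was not tested.

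With a library left out, 13 to 15 members passed with shCdk8-1 and 12 to 16 with shCdk8-2 in DMSO, 3 to 4 with SnxB in cntrl cells, 17 to 20 and 14 to 16 for the hairpins within SnxB, and 15 to 17 and 14 to 17 against cntrl cells in SnxB. With the replicate number as a block, 3 members passed between the shCdk8 lines, where Notch4 (adjusted p = 0.0634) and Psen2 (0.0631) dropped out. Psen2 also missed the threshold there with DESeq2 (0.062). The block changed no other count by over 1.5 times. At 3 counts a library cannot tell a gene from 0, which limits Psen2 in cntrl cells and the library of shCdk8-1 cells in DMSO with 3 counts of Notch4.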
